A study of Mus musculus with 6 samples.

Results

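The transcripts of the 7 genes that encode subunits of the NMDA receptor, Grin1, Grin2a, Grin2b, Grin2c, Grin2d, Grin3a and Grin3b, were compared between the cerebral cortex of young adult and old mice. The genes were taken by symbol from the 55421 genes of the deposited tables. RNA-seq had been performed on the cortex of 3 mice of 6 months (mice 10, 11 and 17) and 3 mice of 24 months (mice 2, 4 and 5), 1 library per mouse. All 6 were wild-type (WT) C57BL/6J males that received isoflurane before death, so the groups shared strain, sex, genotype and anesthesia and differed in age. Libraries were made from 10 ng of total RNA of the whole dissected cortex, and RNA from all of its cell types was therefore measured together. The question the design addresses is which transcripts differ between 6 and 24 months of age.

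NMDA receptors are cation channels that typically open when glutamate and a co-agonist, glycine or D-serine, are both bound and the membrane is depolarized. Calcium that enters through them drives lasting changes of synaptic strength. Each channel is an assembly of obligatory GluN1 subunits (from Grin1), which bind the co-agonist, with GluN2 subunits (from Grin2a to Grin2d), which bind glutamate and set the kinetics, or with GluN3 subunits (from Grin3a and Grin3b), which bind glycine and lower calcium entry. Grin2b and Grin2d are prominent in the developing brain, whereas Grin2a predominates in the adult forebrain.

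The members are related in sequence, which bears on whether short reads can be told apart between them. The coding bases below, shown for a member of each of the 3 subfamilies, are those of the 60-base window most alike among the 7 genes, and they encode part of the third membrane segment, which lines the gate of the channel. Capitals mark the 28 positions at which all 7 genes carry the same base, and each sequence is read 5′ to 3′ on the strand of its gene (GRCm38, GENCODE vM21).
Grin1, chr2:25297196-25297255, exon 15: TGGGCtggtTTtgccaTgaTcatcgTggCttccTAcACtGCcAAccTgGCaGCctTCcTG
Grin2a, chr16:9653444-9653503, exon 8: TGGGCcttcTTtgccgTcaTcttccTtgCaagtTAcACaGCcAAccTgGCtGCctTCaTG
Grin3b, chr10:79974606-79974665, exon 3: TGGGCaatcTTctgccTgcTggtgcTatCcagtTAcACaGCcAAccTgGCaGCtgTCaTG
Even in this window Grin1 differed from Grin2a at 16 positions and from Grin3b at 23, and Grin2a differed from Grin3b at 17. Over the aligned coding sequences the closest pairs were Grin2c and Grin2d, with 64.9% of bases identical, Grin2a and Grin2b with 64.4%, and Grin3a and Grin3b with 58.1%. Grin1 and Grin3a were the least alike, at 42.3%. The longest coding run shared by any pair was 34 bases, in Grin2b and Grin2c. The 75-base reads kept at most 69 bases after the authors clipped 3 from each end, and none of the 21 pairs shared a run of 69 bases in their annotated transcripts.

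The genes lie on 7 chromosomes, and their annotated spans differ widely. Grin2b (ENSMUSG00000030209.14, chr6:135713233-136173511) spans 460279 bases and Grin2a (ENSMUSG00000059003.12, chr16:9567898-9995560) 427663 bases. Grin3a (ENSMUSG00000039579.15, chr4:49661611-49845744) spans 184134 bases. The other members are compact, with 46496 bases for Grin2d (ENSMUSG00000002771.12, chr7:45831883-45878378) and 28007 for Grin1 (ENSMUSG00000026959.13, chr2:25291181-25319187). Grin2c (ENSMUSG00000020734.13, chr11:115249169-115267243) spans 18075 bases and Grin3b (ENSMUSG00000035745.9, chr10:79970715-79977190) 6476. The exonic lengths used in the deposited files, from 3296 bases for Grin3b to 24842 for Grin2b, were those of this annotation. Some exonic bases are shared with genes on the opposite strand, amounting to 1307 bases or 13.5% of the exons of Grin1 with the antisense gene Grin1os and to 32.1% of the exons of Grin3b with Tmem259. For Grin2d 9.66% of the exonic bases are shared with the antisense gene Gm45441. No strand option was stated for the counting, so reads from these shared bases cannot be assigned with certainty to one strand.

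The libraries held 29495379 to 36494240 counts, of which 27578 to 38547 lay on the 7 subunit genes. Counts were scaled by edgeR's TMM factors, 0.921 to 0.946 at 6 months and 1.04 to 1.10 at 24 months. The excitatory neuron markers (5 genes, among them Slc17a7 and Neurod6) summed to 813 to 1057 TPM in the 6 libraries, and those of striatum to 126 to 188 TPM. The 24-month libraries stood apart at low levels, since 40208 to 43561 genes were detected in them and 33974 to 35651 in the 6-month libraries. In these libraries the olfactory and vomeronasal receptor families together amounted to 387 to 623 TPM, against 142 to 164 TPM at 6 months.

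The adult forebrain subunits Grin2a and Grin1 were the most abundant of the family at both ages, and Grin3b was close to absent. TPM is a level per exonic length, scaled to the same total in every library, and can be compared between genes. Averaged over the 6 libraries, Grin2a stood at 99.2 TPM, Grin1 at 73.1 and Grin2b at 36.9 TPM. Grin2c at 11.6 and Grin3a at 11.1 TPM followed, and then Grin2d at 1.75 and Grin3b at 0.178 TPM. Grin2a was above Grin1 in 6 of 6 libraries, although the ranges of both genes overlapped. Grin1 exceeded Grin2b without overlap, by 1.98 times on average, and Grin2b exceeded Grin2c by 3.17 times. Grin2c and Grin3a were the neighbours whose order was not the same in all libraries, as described further on. The order was the same when computed from CPM (counts scaled to the library total) per exonic kb. TPM is built from the same counts and lengths, so this is no separate check. Both orders rest on the exonic lengths. In counts Grin2b, with 24842 exonic bases, was above Grin1 in every library (9040 against 8891 in mouse 17).

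**Figure D1:**
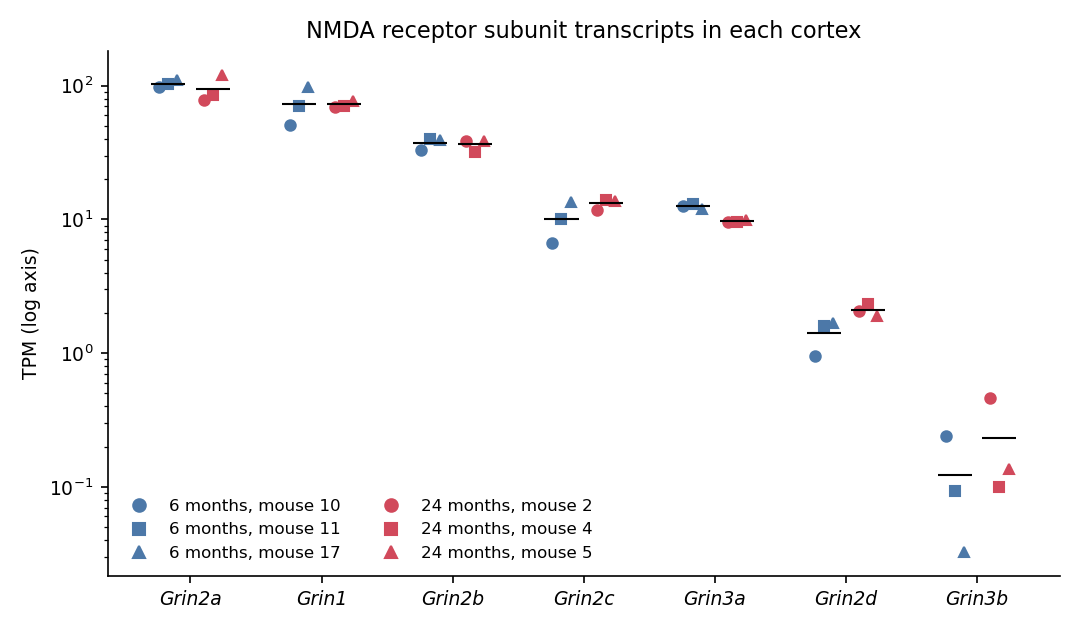
TPM on a log axis for each subunit gene in each library, ordered by the mean over the 6 libraries. Points are mice (blue, 6 months; red, 24 months) and the bars are means of 3 mice. Grin3a at 24 months (9.56 to 9.89 TPM) lies below all 6-month values (12.1 to 12.99 TPM), and Grin2d at 24 months (1.88 to 2.31 TPM) above all 6-month values (0.953 to 1.68 TPM).

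Of the 7 subunits, Grin3a was the one that passed an FDR of 10% between the ages, and it was lower at 24 months. At the 1% FDR of the study's methods 0 of the 7 were called by edgeR's quasi-likelihood test, against a background of 0% of the 32905 genes tested. With an unadjusted p under 0.05 there was 1 subunit, Grin3a, beside 5780 genes higher and 4316 lower of the 32905 tested. The likelihood ratio test of edgeR and the Wald test of DESeq2 each called that 1 subunit at 1% FDR. They called 5.18% and 1.3% of the genes to which they gave an adjusted p. At 10% FDR both also called Grin3a alone of the 7, beside 6.67% and 8.5% of those genes called lower. In the quasi-likelihood test at 10% FDR the 1 of 7 subunits called stands beside 18.4% of all genes tested (8.33% lower and 10% higher), or 19.7% of the 15793 genes with a mean of at least 1 CPM (17.3% lower and 2.47% higher). The ages did not overlap in TMM-scaled CPM for 2 of the 7, Grin3a and Grin2d, beside 36.3% of all genes tested (16.2% lower and 20% higher). Of the genes with a mean of at least 1 CPM the ages did not overlap in 37.8%, 32.4% lower and 5.43% higher. Fitted log2 fold changes for 24 against 6 months were below 0 for 4 subunits and above 0 for 3, with a median of -0.13. Their median was close to that of the genes with a mean of at least 1 CPM, -0.14, whereas the median over all genes tested was 0.15. In whole cortex, fewer cells of a type and less RNA per cell cannot be told apart.

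**Figure D2:**
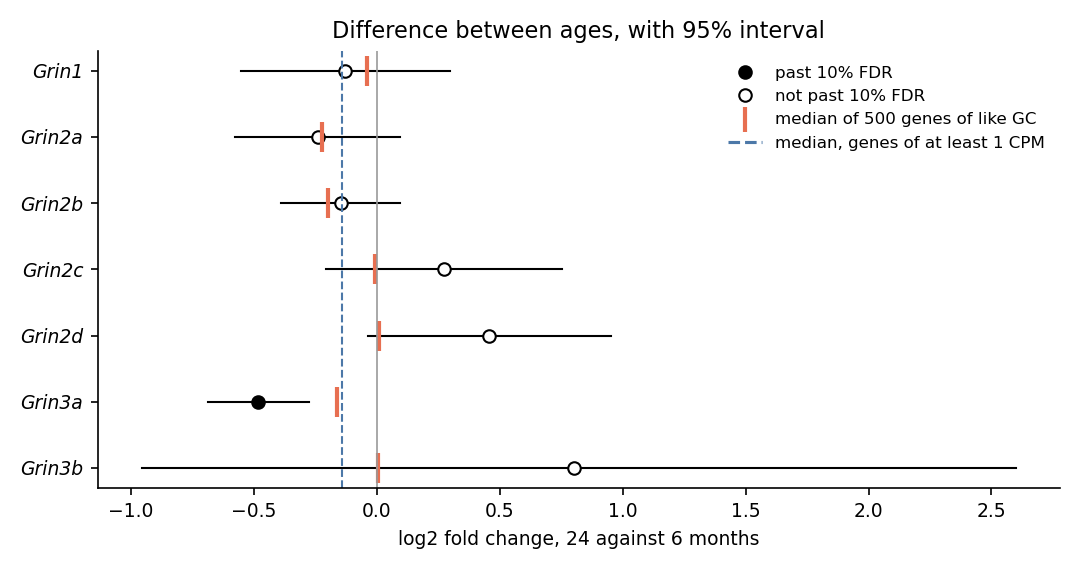
Fitted log2 fold change (24 against 6 months, x axis) of each subunit gene with its 95% interval. The filled point is Grin3a (-0.48), past 10% FDR, the orange ticks are medians of the 500 genes nearest in GC content, and the dashed line is the median of genes with a mean of at least 1 CPM (-0.14). The intervals of the other 6 genes include 0.

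Grin1, the subunit common to all NMDA receptors, did not differ between the ages beyond the spread among mice. At 6 months it was at 51.2 TPM in mouse 10, 70.5 in mouse 11 and 98.6 in mouse 17. At 24 months it was at 69.7 in mouse 2, 70.8 in mouse 4 and 77.4 in mouse 5. The 3 old mice lay close together and inside the range of the young mice, in which the highest value was 1.92 times the lowest. The log2 fold change was -0.13 with a 95% interval of -0.55 to 0.30 (SE 0.19, edgeR adjusted p = 0.672), which corresponds to folds from 0.681 to 1.23. The sign turned to 0.059 when libraries were scaled by their totals, to 0.027 when only genes with a mean of at least 1 CPM were fitted, and to 0.14 without the 6-month mouse 17.

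Grin2a, the main GluN2 subunit of the adult cortex, was lower in 2 of the 3 old mice. Its level was 97.4, 102 and 111 TPM in the 6-month mice 10, 11 and 17, and 78.7, 84.9 and 121 TPM in the 24-month mice 2, 4 and 5. Mouse 5 held the highest value of all and the other old mice the lowest values, so the ages overlapped. The fold change was 0.847 (log2 -0.24, 95% interval -0.58 to 0.10, edgeR adjusted p = 0.298). Without mouse 5 it was -0.45 on the log2 scale with an adjusted p of 0.0338, so 1 library decides whether this gene passes 10% FDR. The fit without mouse 5 called 4364 genes higher and 3633 lower of 31275 at 10% FDR.

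Grin2b, whose product gives slow currents and is prominent in early life, did not differ between the ages beyond the spread among mice. It was measured at 33.2, 39.7 and 39.1 TPM in the young mice and at 38.6, 32.1 and 38.8 TPM in the old mice, in the same order of animals. Both ages covered the same range. The log2 fold change of -0.15 (SE 0.11, 95% interval -0.39 to 0.09, edgeR adjusted p = 0.373) turned to 0.043 with library totals and to 0.0084 when only genes with a mean of at least 1 CPM were fitted.

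Grin2c, best known from cerebellar granule cells and also found in astrocytes and thalamus, varied 2.03-fold among the young mice. It was at 6.68, 10.0 and 13.5 TPM in mice 10, 11 and 17, and at 11.8, 13.9 and 13.9 TPM in mice 2, 4 and 5. In 2 of the 3 old mice the level was above that of every young mouse, and mouse 2 lay between mice 11 and 17. The log2 fold change was 0.27 (SE 0.22, 95% interval -0.21 to 0.75, edgeR adjusted p = 0.406) and became 0.055 without mouse 10. The 4 markers of cerebellar granule cells, Gabra6, Cbln3, Fat2 and Barhl1, summed to only 0.339 to 0.449 TPM at 6 months and 0.682 to 1.28 TPM at 24 months. At these low levels 2 of the 4 were called higher at 10% FDR, Fat2 (log2 2.23, edgeR adjusted p = 0.0518) and Barhl1 (log2 2.11, adjusted p = 0.0877). For 3 of the 4 the ages did not overlap, with the old mice higher. Of all genes tested 10% were called higher, and 20% lay higher without overlap. Rises were common among other genes of such low level. Of 1380 olfactory and vomeronasal receptor genes tested, 661 were called higher and 935 lay higher without overlap. At 6 months these families stood at 0.0198 to 0.0228 CPM per exonic kb, and the 4 markers at 0.0174 to 0.0223. Of the astrocyte markers 1 of 8 was called at 10% FDR, Gfap, which was higher at 24 months (log2 0.69, edgeR adjusted p = 0.0738), and 4 of the 8 had fitted changes above 0 and 4 below, with a median of -0.020. In TMM-scaled CPM 2 of the 8 lay lower in all old mice and 0 higher. Of genes with a mean of at least 1 CPM 32.4% lay lower without overlap and 5.43% higher. Aqp4, the astrocyte water channel, was at -0.40 (edgeR adjusted p = 0.102). The summed TPM of the astrocyte list was 3038 to 3232 at 6 months and 3494 to 3688 at 24 months, most of it from Aldoc. Their part in the level of Grin2c was not tested.

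Grin2d, the GluN2 subunit of the brainstem, diencephalon and of forebrain interneurons, was the member that lay higher in all 3 old mice. Its counts were 56, 103 and 104 in mice 10, 11 and 17, and 118, 140 and 112 in mice 2, 4 and 5. In TPM these were 0.953, 1.59 and 1.68 at 6 months and 2.08, 2.31 and 1.88 at 24 months. The ages did not overlap, but the gap between them was smaller than the range within the young mice. The log2 fold change of 0.46 (SE 0.22, 95% interval -0.04 to 0.95) did not pass the test (edgeR adjusted p = 0.190), and without mouse 10 it was 0.25. The 500 genes nearest to Grin2d in level had a median log2 fold change of 0.016, and relative to them Grin2d was at 0.44. The sensory receptor families, at far lower levels, were more abundant in the old libraries, and per exonic kb they stood at 0.0198 to 0.0228 CPM at 6 months and 0.0541 to 0.0926 CPM at 24 months. Grin2d stood well above these, at 0.251 to 0.449 CPM per kb at 6 months and 0.513 to 0.650 CPM per kb at 24 months. Of the inhibitory neuron markers 0 of 8 were called at 10% FDR by either edgeR test or by DESeq2, and 0 had an unadjusted p under 0.05. Of the 32905 genes tested, 5780 higher and 4316 lower had such a p. The summed level of the inhibitory neuron markers was 1975 to 2126 TPM at 6 months and 1763 to 2180 TPM at 24 months.

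Grin3a, whose product joins GluN1 and GluN2 subunits in receptors that pass less calcium and which is known for a peak in early postnatal life, had the tightest values of the family. It was measured at 12.5 TPM in mouse 10, 12.99 in mouse 11 and 12.1 in mouse 17. In the old mice 2, 4 and 5 it was measured at 9.63, 9.56 and 9.89 TPM. All 3 old mice lay below all 3 young mice, and within an age the highest value was 1.08 times the lowest at 6 months and 1.03 times at 24 months. Grin3a was 28.5% lower at 24 months (fold 0.715, log2 -0.48, SE 0.09, 95% interval -0.69 to -0.28), with an edgeR unadjusted p of 0.00039 and an adjusted p of 0.0518. With libraries scaled by their totals the log2 difference was smaller, at -0.29 (adjusted p = 0.0893), and from the TPM values it was -0.37. The difference was below 0 under every scaling, filter and test tried and with each mouse left out. Set against the median of the 500 genes nearest in GC content it was -0.32, and against the median of the 500 genes nearest in level -0.28. The adjusted p was over 10% FDR without mouse 10 (0.150), mouse 11 (0.159), mouse 2 (0.109) or mouse 4 (0.184), and when only genes with a mean of at least 1 CPM were fitted (0.142). Few genes of any kind passed 10% FDR in these fits. There were 0 without mouse 10, 1 without mouse 11 and 0 without mouse 4. Without mouse 2 there were 72 higher and 104 lower of 30062, and with genes of at least 1 CPM 60 higher and 6 lower of 15793.

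Some general neuronal transcripts were also lower at 24 months. Of the 10 neuron markers, 4 were called lower at 10% FDR, Stmn2 (log2 -0.45), Tubb3 (log2 -0.36), Syt1 (log2 -0.40) and Rbfox1 (log2 -0.41), and 0 higher. The other 6 were not called, among them Syp at 0.33 (edgeR adjusted p = 0.441) and Eno2 at -0.031, and the median over the list was -0.27. Eno2 and Syp varied most of the 10 among the young mice. In mice 10, 11 and 17 Eno2 was at 330, 68.2 and 144 TPM and Syp at 138, 50.7 and 84.6 TPM. Both enter the marker mean used below, which carries their spread. Of the 5 markers of excitatory neurons, 3 were called lower, among them Sv2b and Neurod6. Slc17a7 was not called (log2 -0.057, edgeR adjusted p = 0.704), with a mean of 147 TPM at 6 months and 152 TPM at 24 months. The summed level of the 5 was 956 to 1057 TPM at 6 months and 813 to 836 TPM at 24 months, most of it from Sv2b and Neurod6. Of the 7 oligodendrocyte and 6 endothelial markers 0 were called at 10% FDR by either edgeR test or by DESeq2, and 0 had an unadjusted p under 0.05. Of the 32905 genes tested, 5780 higher and 4316 lower had such a p. The oligodendrocyte list summed to 1426 to 2243 TPM at 6 months and to 831 to 2576 TPM at 24 months. The counts of neuron markers stand beside 17.3% of genes with a mean of at least 1 CPM called lower. Relative to the mean log2 TPM of the 10 neuron markers in the same library, Grin3a was at -4.68, -4.17 and -4.44 in the young mice and at -4.56, -4.71 and -4.89 in the old mice. The ages overlapped on this scale, with a difference of -0.29 (exact permutation test, two-sided, p = 0.2, adjusted p = 0.467 over the 7 subunits). It ranged from -0.42 (without mouse 10) to -0.16 (without mouse 11) with 1 mouse left out. Relative to the 5 excitatory neuron markers it was -0.13, and there the ages did not overlap (exact permutation p = 0.1). Grin2c and Grin2d, at 0.68 and 0.85 on this excitatory scale, did not overlap either (exact permutation p = 0.1 for each). Grin1, Grin2a and Grin2b were at 0.27, 0.083 and 0.20 there (exact permutation p = 0.6, 0.8 and 0.3). Relative to the 10 neuron markers, the difference was 0.11, -0.072 and 0.044 for Grin1, Grin2a and Grin2b. For Grin2c and Grin2d it was 0.52 and 0.69 on that 10-marker scale, and the ages overlapped for each of these subunits. Without mouse 10 the last 2 were 0.13 and 0.31, and with 1 mouse left out they reached 0.78 and 0.91. The smallest p that 3 mice against 3 allow in this test is 0.1. The part of neuron content in the level of Grin3a was not tested further.

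Grin3b, the other glycine-binding GluN3 subunit, is known mainly from motor neurons, and it was at the limit of detection in cortex. It had 7, 3 and 1 counts in mice 10, 11 and 17, and 13, 3 and 4 counts in mice 2, 4 and 5. The sums of 11 counts at 6 months (95% Poisson interval 5.49 to 19.7) and 20 at 24 months (12.2 to 30.9) cover counting error only, and their intervals overlap. In CPM per exonic kb it was at 0.00871 to 0.0634 at 6 months and 0.0281 to 0.134 at 24 months, which overlapped the range of the sensory receptor families. The log2 fold change of 0.80 had a 95% interval of -0.96 to 2.60 (edgeR adjusted p = 0.504) and changed sign to -0.13 without mouse 2. A difference between the ages was therefore not detectable at this depth.

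Ratios between subunits within a library do not depend on the scaling between libraries, and they describe the composition of the receptor transcripts. Grin2a made up 37.3 to 48.2% of the summed TPM of the 7 genes, Grin1 25.3 to 35.7% and Grin2b 14.2 to 18.3%. Together the remaining members gave a small share, in which Grin2c contributed 3.30 to 6.50% and Grin3a 3.76 to 6.19%. Within the 4 GluN2 genes, Grin2a held 68.1% ± 2.08 (SD, n = 3) at 6 months and 64.2% ± 4.50 at 24 months. Grin2b held 24.5% ± 1.15 and 25.2% ± 3.79 at the 2 ages, and Grin2c 6.52% ± 1.68 and 9.11% ± 1.28.

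**Figure D3:**
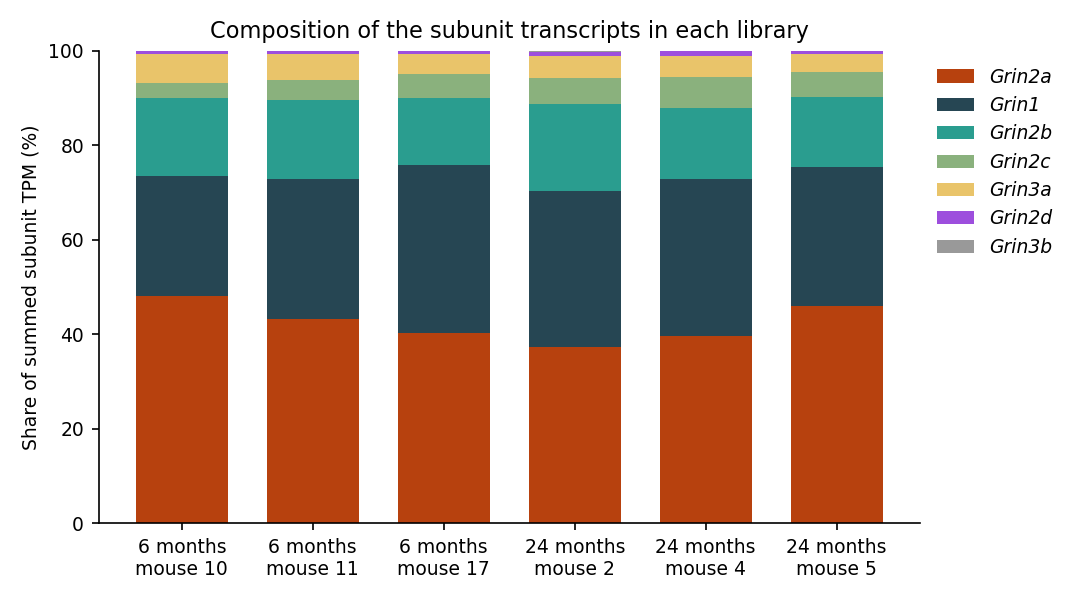
Share of each subunit gene in the summed TPM of the 7 genes (y axis, %) in each library. Grin2a and Grin1 form the lower 2 blocks of every bar, and Grin3b (at most 0.220%) is too small to be seen.

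The ratio of Grin2a to Grin2b, often used to follow the maturation of synaptic receptors, did not separate the ages. It was 2.93, 2.58 and 2.84 in the young mice 10, 11 and 17, and 2.04, 2.65 and 3.12 in the old mice 2, 4 and 5. The old mice surrounded the young ones, and the mean log2 ratio was 1.47 ± 0.10 (SD, n = 3) at 6 months and 1.36 ± 0.31 at 24 months. The difference of -0.12 was smaller than the spread (exact permutation test, two-sided, p = 0.7, adjusted p = 0.8 over 8 ratios). The sum of the 4 GluN2 genes was 2.698, 2.18 and 1.68 times Grin1 in the young mice and 1.88, 1.88 and 2.27 times in the old mice, which also overlapped (p = 0.7 in the same exact permutation test).

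Of the ratios to Grin1, those of the minor GluN2 subunits Grin2c and Grin2d were the ones in which the ages did not overlap. The ratio of Grin2c to Grin1 was 0.130, 0.142 and 0.137 in mice 10, 11 and 17, and 0.169, 0.196 and 0.179 in mice 2, 4 and 5. Although Grin1 varied 1.92-fold and Grin2c 2.03-fold among the young mice, their ratio was nearly constant within an age, and all old mice lay above all young mice. The log2 ratio was -2.87 ± 0.06 (SD, n = 3) at 6 months and -2.47 ± 0.11 at 24 months, a difference of 0.41 (exact permutation test, two-sided, p = 0.1, adjusted p = 0.4). Grin2d to Grin1 was 0.0186, 0.0225 and 0.0170 in the young mice and 0.0298, 0.0327 and 0.0243 in the old mice. The ages did not overlap here either, with a log2 difference of 0.58 (p = 0.1, adjusted p = 0.4 in the same exact test). With 3 mice against 3, no ratio could have reached a p below 0.1, and after adjustment over the 8 ratios none was called.

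**Figure D4:**
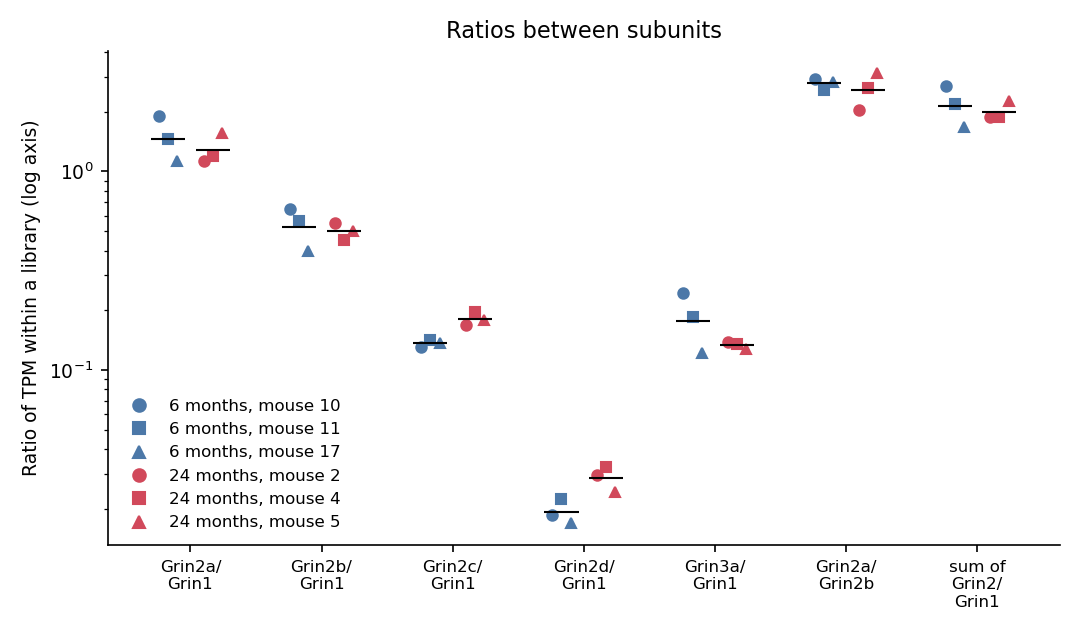
Ratios of TPM within each library on a log axis (blue, 6 months; red, 24 months; bars, mean of the log2 ratios of 3 mice). The ratios of Grin2c and Grin2d to Grin1 are those in which the ages do not overlap. Grin3b to Grin1 is left out because its counts were too few.

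Grin2a, Grin2b and Grin3a did not separate the ages when set against Grin1. The log2 difference was -0.19 for Grin2a, -0.069 for Grin2b and -0.40 for Grin3a, and p was 0.7, 0.8 and 0.4 in the exact permutation test. Grin3b to Grin1, which rests on few counts, had the largest difference of the 8 ratios (log2 1.00) and overlapped between the ages (p = 0.4 in the same exact test). For Grin3a the ratio was 0.244, 0.184 and 0.122 in the young mice and 0.138, 0.135 and 0.128 in the old mice, so that mouse 17, in which Grin1 was highest, lay below the old mice. With Grin2b as the reference in place of Grin1, an alternative chosen after the data had been seen, Grin3a was at 0.377, 0.327 and 0.308 in the young mice and 0.2498, 0.298 and 0.255 in the old mice without overlap (log2 difference -0.33, exact permutation p = 0.1, adjusted p = 0.25 over 5 ratios). Grin2d to Grin2b also did not overlap (log2 difference 0.65, exact permutation p = 0.1), whereas Grin2c to Grin2b did (0.48, exact permutation p = 0.2).

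Grin2c and Grin3a exchanged places in the order of levels, an observation made after the values were seen and given without a test. Grin2c was 0.534, 0.772 and 1.12 times Grin3a in mice 10, 11 and 17, and 1.22, 1.45 and 1.40 times in mice 2, 4 and 5. Grin3a was thus the higher gene in 2 of 3 young mice and Grin2c in all 3 old mice.

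Grin1, Grin2c and Grin2d, members of high GC content, shared the same order among the young mice. Grin2a, of low GC content, had that order too, over a narrower range (97.4, 102 and 111 TPM in mice 10, 11 and 17). Grin2b was also lowest in mouse 10 but highest in mouse 11. Grin1 (59.4% GC in its longest transcript), Grin2c (62.1%) and Grin2d (65.0%) were lowest in mouse 10 and highest in mouse 17 at 6 months, whereas Grin2a (44.8%), Grin2b (45.7%) and Grin3a (49.2%) varied by at most 1.19 times at that age. Grin3b (63.4%) went the other way, with its highest value in mouse 10 (0.241 TPM) and its lowest in mouse 17 (0.0326 TPM), on 7 and 1 counts. The libraries also differed in general with GC content. In mouse 10 the median deviation of genes of at least 55% GC from their mean over libraries was 0.13 lower on the log2 scale than that of genes of at most 42% GC (n = 3189 and 2372 genes). It was also 0.13 lower in mouse 5 and 0.024 lower in mouse 11. In mouse 2 it was 0.22 higher, in mouse 4 0.048 higher and in mouse 17 0.017 higher. Grin1 in mouse 5 was the highest of the old mice, and Grin2c in mouse 5 was at 13.9 TPM. The 500 genes nearest in GC content to each member had median log2 fold changes from -0.22 (Grin2a) to 0.008 (Grin2d), and relative to these Grin2c was at 0.28, Grin2d at 0.45 and Grin1 at -0.089. The part of GC content in these differences was not tested.

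For the 3 main subunits, the genes of most similar profile over the 6 libraries were sought among the 15793 genes with a mean of at least 1 CPM. The measure was the root mean square difference of mean-centred log2 CPM, in which Grin1 itself varied by 0.28, Grin2a by 0.24 and Grin2b by 0.14. Nearest to Grin1 were Slc16a9 (0.071), Cacna2d3 (0.082) and B230317F23Rik (0.089). Nearest to Grin2a were Gm41077 (0.030), Rsrp1 (0.035) and Ralgapa2 (0.036), and nearest to Grin2b were Chka (0.033), Agrn (0.037) and 6820408C15Rik (0.039).

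The genes that supply, anchor and act downstream of NMDA receptors were examined in the same fit, in 7 lists of 64 genes in all. Of these, 0 passed 1% FDR in edgeR's quasi-likelihood test, 4 did so in its likelihood ratio test and 2 in the Wald test of DESeq2, beside 2.33% and 1.46% of genes with a mean of at least 1 CPM. At 10% FDR, 13 were called lower and 1 higher, or 21.9% of the lists against 19.7% of genes with a mean of at least 1 CPM. The median log2 fold change over the 64 genes was -0.18. Without mouse 10, 11 or 4 none of the 64 passed 10% FDR, and without mouse 2 the number was 2. Over all genes tested these fits called 0 without mouse 10, 1 without mouse 11 and 0 without mouse 4. Without mouse 2 the fit called 72 higher and 104 lower of 30062.

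The AMPA receptor subunits, which carry the fast part of glutamate transmission, were lower in all 4 members. Gria2, which makes the channel impermeable to calcium, was at 300.01, 299 and 257 TPM in the young mice and 183, 209 and 245 TPM in the old mice (log2 -0.54, edgeR adjusted p = 0.0526). Gria3 (log2 -0.45, adjusted p = 0.0558) and Gria1 (log2 -0.31, adjusted p = 0.0636) were also called at 10% FDR in edgeR, and so was Gria4. Of genes with a mean of at least 1 CPM, 17.3% were called lower in that test. The ages did not overlap in TMM-scaled CPM in any of the 4, beside 32.4% of genes with a mean of at least 1 CPM that lay lower without overlap. The Wald test of DESeq2 called 3 of them at 10% FDR, beside 11.5% of such genes called lower. Of the 5 kainate receptor subunits 0 were called at 10% FDR by edgeR's quasi-likelihood or likelihood ratio test or by DESeq2. At an unadjusted p under 0.05 there was 1, Grik2 (log2 -0.30, edgeR adjusted p = 0.101), beside 5780 genes higher and 4316 lower of the 32905 tested. Grik3 and Grik1 were at -0.35 and -0.28 on the log2 scale, and the delta receptor subunit Grid1 at 0.027.

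Among the 14 genes of co-agonist supply and removal, 2 were called lower and 1 higher at 10% FDR. Of genes with a mean of at least 1 CPM 17.3% were called lower, and of all genes tested 10% were called higher. Srr, the serine racemase that makes D-serine, was at 79.4, 79.1 and 74.4 TPM in the young mice and at 63.6, 64.4 and 67.5 TPM in the old mice (log2 -0.37, edgeR adjusted p = 0.0552). Slc1a4, a transporter of serine and other neutral amino acids, was at 56.8 to 58.4 TPM at 6 months and 44.01 to 51.05 TPM at 24 months (log2 -0.43, adjusted p = 0.0527). Both genes lay lower in every old mouse than in every young mouse. In TMM-scaled CPM 32.4% of genes with a mean of at least 1 CPM did so. The gene called higher was Slc6a5, the glycine transporter of inhibitory neurons of the hindbrain and spinal cord. It stood at only 0.0448 to 0.0569 TPM at 6 months and 0.186 to 0.310 TPM at 24 months. Its counts were 3, 4 and 3 in mice 10, 11 and 17, and 19, 15 and 12 in mice 2, 4 and 5.

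Among the 17 genes of transport, anchoring and auxiliary proteins, 3 were called lower at 10% FDR, a share close to the 17.3% of genes with a mean of at least 1 CPM. Actn2, an actin-binding protein that attaches to GluN1 and GluN2B, was at 10.5 to 11.5 TPM at 6 months and 6.23 to 8.54 TPM at 24 months (log2 -0.73, edgeR adjusted p = 0.0518). Lin7c (log2 -0.37) and Lin7a (log2 -0.29) belong to the adaptor complex that carries receptor vesicles with the motor Kif17. The scaffold genes Dlg1 to Dlg4 gave log2 fold changes from -0.11 (Dlg1) to 0.25 (Dlg3), none of them called, and Dlg4, which encodes PSD-95, was at 0.083.

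Of the 15 kinases, phosphatases and downstream enzymes, 4 were called lower and 0 higher at 10% FDR in edgeR. These counts stand beside 17.3% of genes with a mean of at least 1 CPM called lower and 2.47% called higher. Rasgrf1, an exchange factor for Ras that binds GluN2B, was at 230 to 284 TPM in the young mice and 194 to 235 TPM in the old mice (log2 -0.43, edgeR adjusted p = 0.0597). Dapk1 (log2 -0.35) and Camk2a, the alpha subunit of the kinase that is activated by calcium from NMDA receptors (log2 -0.28), were also among the 4. Of the 7 regulators of subunit genes, among them Rest, the repressor of neuronal genes, 0 were called at 10% FDR by either edgeR test or by DESeq2. At an unadjusted p under 0.05 there was 1, Nrf1 (log2 -0.27, edgeR adjusted p = 0.112), beside 5780 genes higher and 4316 lower of the 32905 tested. Next in the list were Creb1 (log2 -0.28) and Rcor1 (log2 -0.34).

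**Figure D5:**
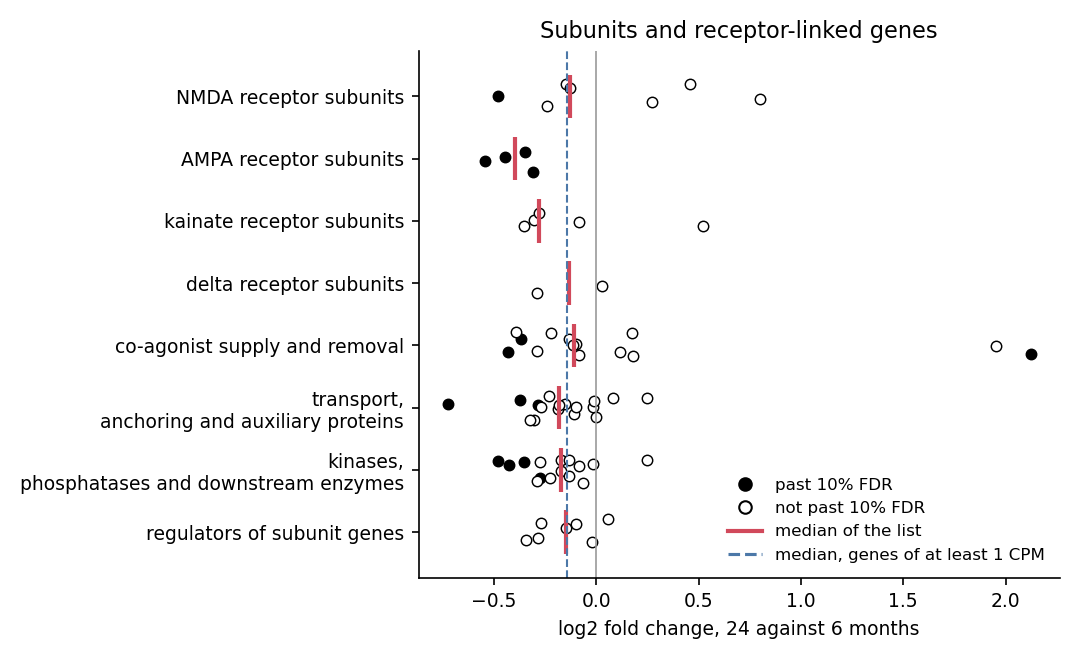
Log2 fold change (24 against 6 months, x axis) of every gene in the subunit list and the 7 linked lists. Filled points passed 10% FDR, red bars are list medians, and the dashed line is the median of genes with a mean of at least 1 CPM (-0.14). The AMPA receptor list has the lowest median (-0.40), with all 4 genes past 10% FDR.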

How the data were processed

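RNA-seq reads of 75 bases were trimmed with Trim Galore 0.6.4, mapped to GRCm38 with STAR 2.7.3a and counted on exons with featureCounts (Subread 2.0.0), per the study's methods and the submitters' processing notes. The authors deposited for each mouse 1 count and 1 TPM value per gene, and all deposited counts were whole numbers (100%). The TPM values, which the authors derived from counts and exonic lengths, were used for levels and ratios. Their methods name GENCODE vM23, and gene positions here are from vM21. Genes with at least 10 counts in all (32905) entered the comparison of ages, for which edgeR 4.0.16 was run under R 4.3.3 with its quasi-likelihood test, TMM factors and Benjamini-Hochberg adjustment. DESeq2 1.42.0 served as an alternative. Ratios were compared by exact permutation tests in scipy 1.17.1, and coding sequences were aligned with MAFFT 7.526. Scripts were tested on simulated data. Each library is 1 mouse, and no batch is labelled. The members and lists were chosen with earlier results of these data known. Named linked genes were the 3 of smallest p in each list, except a few left unreported here, and others were named after their values were seen.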

Additional observations from a re-analysis of the deposited data

How the results depend on the processing

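Grin3a stayed lower at 24 months, and Grin2c and Grin2d higher, under every alternative run. With edgeR's likelihood ratio test and the Wald test of DESeq2, Grin3a passed 1% FDR (1 of 7 subunits in each, adjusted p 0.00899 and 0.00802), and of the linked genes 4 and 2 did. With only genes of a mean of at least 1 CPM fitted, 0 subunits and 0 linked genes passed 10% FDR, and the linked genes called numbered 4 with library totals and 5 with edgeR's filterByExpr. With 1 mouse left out, 0 subunits passed 1% FDR, 0 to 2 passed 10% FDR, and 0 linked genes passed 1% and 0 to 20 passed 10%. On the log2 scale Grin1 became 0.059 with library totals, 0.027 with genes of at least 1 CPM, 0.14 without the 6-month mouse 17 and 0.10 relative to genes of like level, and -0.33 to 0.14 with 1 mouse left out. Grin2b became 0.043 with library totals, 0.0084 with genes of at least 1 CPM, 0.051 relative to genes of like GC content and 0.093 relative to genes of like level. Grin2a became 0.013 and Grin3b -0.21 relative to genes of like level, and Grin3b ranged from -0.13 (without the 24-month mouse 2) to 1.68 with 1 mouse left out. Comparisons with genes of like GC or level, and Grin2b as reference, were added after seeing the data. Leaving out 1 mouse gave log2 differences from -0.37 to 0.0055 for Grin2a/Grin1, -0.27 to 0.083 for Grin2b/Grin1, 0.35 to 0.46 for Grin2c/Grin1, 0.48 to 0.70 for Grin2d/Grin1, -0.67 to -0.17 for Grin3a/Grin1, -0.26 to 0.049 for Grin2a/Grin2b and -0.28 to 0.066 for the GluN2 sum. Relative to neuron markers these ranges were -0.25 to 0.37 for Grin1, -0.24 to 0.027 for Grin2a, and -0.16 to 0.20 for Grin2b, and with excitatory neuron markers Grin2a was at 0.083. Over all genes, calls at 10% FDR numbered 3299 higher and 2742 lower with TMM factors and 4113 and 323 with library totals, 1108 and 430 with filterByExpr, 60 and 6 with genes of at least 1 CPM, and 5302 and 2196 in the likelihood ratio test. They numbered 931 and 1821 in DESeq2, 2637 and 1377 with no filter beyond 1 count, and 0 to 4364 higher and 0 to 3633 lower with 1 mouse left out. At 1% FDR there were 0 genes in the quasi-likelihood test, 1451 higher and 252 lower in the likelihood ratio test, 124 and 154 in DESeq2, and 34 and 8 with no filter beyond 1 count. The cause of these changes was not tested. No paired analysis was possible because the mouse numbers do not recur between the ages. Depth limits Grin3b, with at most 13 counts in a library, and 3 mice per age limit exact tests to p of at least 0.1.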

Other observations

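The kainate receptor subunit gene Grik5 varied more among mice than any NMDA receptor subunit above 1 TPM. It was at 6.25, 19.3 and 70.7 TPM in the 6-month mice 10, 11 and 17, and at 65.2, 55.6 and 28.6 TPM in the 24-month mice 2, 4 and 5. The lowest and the highest value were both those of young mice, and the log2 fold change between the ages was 0.52 (edgeR adjusted p = 0.611). Among the young mice the order was that of Grin1, lowest in mouse 10 and highest in mouse 17. The antisense gene Grin1os, which overlaps the exons of Grin1, had 37, 70 and 89 counts in the same 3 mice and 58, 75 and 80 counts in the old mice 2, 4 and 5. The delta receptor subunit gene Grid1 was at 16.1, 22.6 and 23.8 TPM in the young mice and at 23.3, 24.6 and 21.1 TPM in the old mice, with mouse 10 again lowest. These genes were singled out after their values were seen.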
